A study of Mus musculus with 2 samples.

Results

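Bax, Bbc3, Aen, Ei24, Eda2r, Fas and Phlda3 are target genes of the transcription factor p53 whose products act in cell death. The 7 genes were chosen by symbol from the deposited expression table, which holds 10617 distinct symbols, and all 7 were found there. They were compared between 2 libraries of mouse nephron progenitors (cap mesenchyme cells of the embryonic kidney that express Six2), sorted at embryonic day 15.5. Both groups came from mice of a mixed CD1 and C57BL background that carry the transgene Six2CreGFP, in which Six2 regulatory sequence drives a Cre recombinase and a green fluorescent protein. WT denotes the wild-type group, Six2CreGFP+;p53+/+, with intact p53. KO denotes the knockout group, Six2CreGFP+;p53f/f, with floxed alleles that Cre deletes in cells that express or have expressed Six2. There was 1 library per group. The number of embryos behind each library is not given in the sources used here, no difference below has a replicate check, and no test between genotypes was possible.

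p53 is held at a low level in unstressed cells, mainly by the ubiquitin ligase Mdm2, and is stabilised by DNA damage and other stress. It then binds DNA as a tetramer and raises transcription of genes for cell cycle arrest, repair and death. Its death targets feed the mitochondrial route, in which BCL2 family proteins open the outer mitochondrial membrane, and the death receptor route, in which receptors of the tumour necrosis factor family recruit caspases. Embryos that lack Mdm2 die of unrestrained p53, and in the developing kidney p53 activity has to be kept within limits for progenitors to persist.

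The promoters are shown first because p53 acts by binding DNA near its targets. RefSeq promoter windows (build GRCm38.p6), running from 250 bases before to 50 bases after each annotated start, were found for all 7 genes. They were searched on both strands for the p53 half-site of 10 letters, which reads the same on either strand. A full p53 site is made of 2 such half-sites. A half-site with no mismatch was in the windows of Bax, Aen and Ei24. It was in 8.36% of all 32851 windows and 9.55% of 27025 genes. A tandem of 2 adjacent half-sites with at most 3 mismatches in all was in windows of Bbc3 and Aen, against 1.38% of all windows. The windows of Bax and Ei24 had no such tandem. The number of mismatches was chosen after these promoters had been read. Neither kind of match was in the windows of Phlda3, Eda2r and Fas. A match is a description of letters, and its absence covers only this window. The stretches below are the 250 bases before the start of 4 of the genes, with matches in capitals, and for Aen the 20-base tandem with 5 flanking bases on each side. Phlda3 is shown for comparison as the member with the largest loss of density and has no match, so no capitals.
Bax, chr7:45466899-45467148, minus strand: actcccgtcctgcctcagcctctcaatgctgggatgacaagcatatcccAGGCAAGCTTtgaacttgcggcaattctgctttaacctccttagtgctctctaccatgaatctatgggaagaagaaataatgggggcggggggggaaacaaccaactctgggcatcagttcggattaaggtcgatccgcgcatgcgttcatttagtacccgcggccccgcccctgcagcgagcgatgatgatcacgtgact
Bbc3, chr7:16309333-16309582, plus strand: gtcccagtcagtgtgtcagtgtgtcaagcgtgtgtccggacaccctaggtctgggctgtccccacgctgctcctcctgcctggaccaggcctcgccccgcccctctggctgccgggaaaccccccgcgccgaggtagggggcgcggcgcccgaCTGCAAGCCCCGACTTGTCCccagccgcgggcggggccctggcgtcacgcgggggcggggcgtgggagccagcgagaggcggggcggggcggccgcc
Ei24, chr9:36797335-36797584, minus strand: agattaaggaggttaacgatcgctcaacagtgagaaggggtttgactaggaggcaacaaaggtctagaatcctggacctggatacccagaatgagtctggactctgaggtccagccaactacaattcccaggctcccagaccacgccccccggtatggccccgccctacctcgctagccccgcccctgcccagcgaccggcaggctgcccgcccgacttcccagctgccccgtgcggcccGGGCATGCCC
Phlda3, chr1:135765835-135766084, plus strand: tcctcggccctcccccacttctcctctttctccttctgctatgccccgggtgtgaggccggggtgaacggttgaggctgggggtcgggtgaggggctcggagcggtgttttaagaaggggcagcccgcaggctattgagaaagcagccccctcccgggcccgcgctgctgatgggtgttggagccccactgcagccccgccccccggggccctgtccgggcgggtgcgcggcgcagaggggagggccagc
Aen, chr7:78895932-78895961, plus strand: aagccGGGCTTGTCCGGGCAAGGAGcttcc
The Bax half-site begins 201 bases before the start and the Ei24 half-site 10 bases before it. The Bbc3 tandem begins 97 bases before the first of its 3 annotated starts, and the windows of the other 2 have no match. The Aen tandem lies 10 bases after 1 annotated start and 121 bases before the other. Its first 10 bases are the half-site with no mismatch.

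Trp53, the gene for p53, checks the labels. Its read density, in reads per unit of gene length and sequencing depth (RPKM), was 33.9 in WT against 5.38 in KO, 6.31-fold lower (95% interval 6.01 to 6.63). Intervals here are exact Clopper-Pearson intervals on reads estimated from density, gene length and an implied depth of about 91200000 reads in WT against 85600000 in KO, and they cover counting error only. A processed copy, Trp53-ps, matches stretches of Trp53 at 95.2 to 98.0% identity, so reads could be split between them. Of the markers of these progenitors, Six2, on whose transgene the cells were sorted, was at 482 RPKM in WT against 509 in KO and Sall1, a transcription factor of the cap mesenchyme, at 184 and 211. Of 18 such markers in the table, 10 were lower in KO and 8 higher. Cited1, with the largest difference on the log2 scale used below, was at 23.6 RPKM in WT against 16.1 in KO.

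All 7 death targets had a lower density in KO, where 63.9% of all listed genes were lower. On the scale used for size, log2(KO + 1) minus log2(WT + 1), 2 of the 7 were at least 1.5-fold lower, Phlda3 and Eda2r, against 5.49% of all listed genes. Sizes of 1.5-fold below are on this scale unless the density ratio is named. Of the 5 members at or over the median density of 7.30 RPKM, 1 was, against 2.41% of listed genes over that density. By the plain density ratio it was 3 of 7, with Fas added, against 22.8%. The median difference of the 7 was -0.23, and that of all listed genes -0.11. The size of the difference was uneven. Eda2r, Fas and Phlda3 had density ratios of KO to WT of 0.179, 0.224 and 0.433, Bbc3 of 0.705, and Bax, Ei24 and Aen of 0.859, 0.905 and 0.909. Summed over the 7 genes, density was 200.8 RPKM in WT against 138 in KO, and Phlda3 alone made up 72.4% of that loss. In the authors' deposited table the corrected p-values of the members ran from 0 for Phlda3, Eda2r and Bbc3 to 8.5e-05 for Fas, and they compare 2 libraries, not genotypes.

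**Figure D1:**
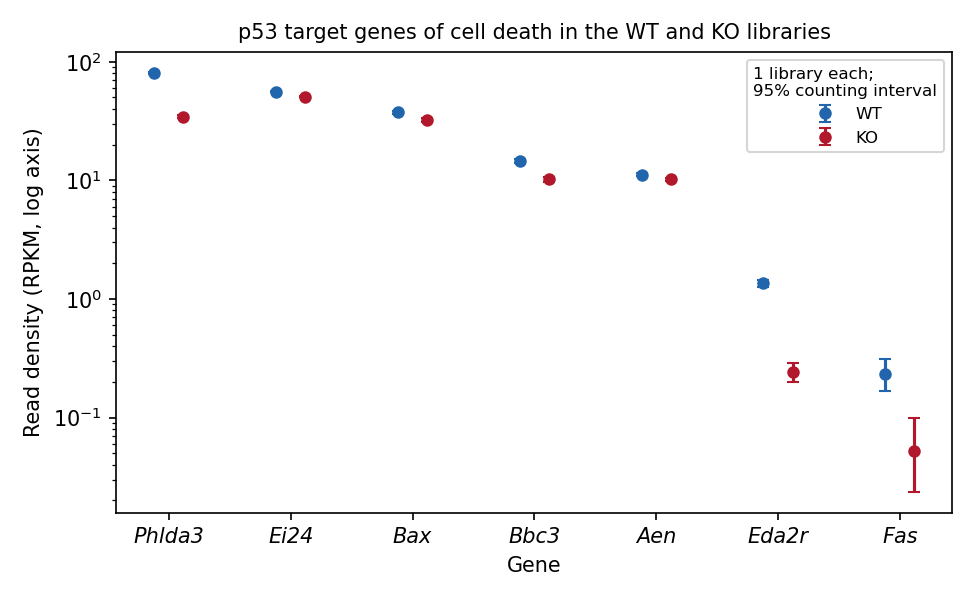
Read density in RPKM (log axis) of the 7 genes in the WT library (blue) and the KO library (red), ordered by density in WT; bars are 95% counting intervals of 1 library each. Phlda3 goes from 79.8 to 34.6 RPKM, below Ei24 in KO, while Bax, Aen and Ei24 lie close together in the 2 libraries.

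The order of the levels also shifted. In WT it ran Phlda3, Ei24, Bax, Bbc3, Aen, Eda2r and Fas, and no neighbours overlapped in their counting intervals. In KO, Ei24 was highest and Phlda3 second. Bbc3 (interval 9.74 to 10.7 RPKM) and Aen (9.90 to 10.5 RPKM) could no longer be told apart there.

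Phlda3 differed most in amount. It encodes a small protein with a pleckstrin homology domain that competes with the kinase Akt for membrane lipids and so restrains a survival signal. The gene (ENSMUSG00000041801, chromosome 1, 135766119 to 135769136, plus strand of GRCm38) was at 79.8 RPKM in WT against 34.6 in KO. It was 2.31-fold lower (interval 2.23 to 2.39), a log2 difference of -1.18 that ranked 114 from the lowest of 10617. In the authors' deposited table it was 2.22-fold lower in KO, a value that carries their scaling between the libraries.

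Akt itself and its partners moved little and mostly the other way. Of 15 fixed names around PHLDA3 and Akt, 11 were in the table, 8 of them higher and 3 lower in KO, none by 1.5-fold, with a median difference of 0.090. Akt1 was at 48.3 RPKM in WT against 44.3 in KO. The largest differences among genes of at least 1 RPKM were in Gsk3b, a kinase that Akt inhibits (22.6 and 27.3 RPKM), Rictor, a subunit of the complex that phosphorylates Akt (6.87 and 8.17), and Pdpk1, which phosphorylates Akt too (8.85 and 10.4). After correction for GC content and length, the differences of Rictor and Pdpk1 changed sign, to -0.041 and -0.0050, and the list median went to -0.068. Of the relatives of Phlda3, Phlda1 was at 34.1 and 35.7 RPKM. Phlda2, below 1 RPKM on average, was lower in KO at 1.10 and 0.586 RPKM. Its log2 difference was -0.41 and its density ratio 0.533 (interval 0.376 to 0.733).

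The members of the mitochondrial route were lower by less. Bbc3 encodes PUMA, a BH3-only protein that neutralises the survival proteins of the BCL2 family. The gene (ENSMUSG00000002083, chromosome 7, 16309616 to 16318205, plus strand) was at 14.5 RPKM in WT against 10.2 in KO, 1.42-fold lower (interval 1.34 to 1.51), with a log2 difference of -0.47. Bax encodes the pore-forming protein that PUMA sets free to act. It (ENSMUSG00000003873, chromosome 7, 45461695 to 45466898, minus strand) was at 37.6 RPKM in WT against 32.3 in KO, 1.16-fold lower (interval 1.12 to 1.21). The Bax exons share 192 bases, 12.2% of their length, with Gm45808 on the same strand, so some reads could belong to either. The intervals of the Bax and Bbc3 ratios did not overlap.

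Neither Bbc3 and Bax nor any other BCL2 family gene in the table differed by 1.5-fold on the pseudocount scale. Of 20 other fixed names, 13 were in the table, 11 lower and 2 higher in KO, with a median of -0.15. Over all listed genes 63.9% were lower in KO, with a median of -0.11. Centred on that all-gene median, the median of the 13 was -0.033. Among genes of at least 1 RPKM, the largest differences were in Bik (2.62 and 1.86 RPKM) and Bad (13.1 and 10.5 RPKM), both BH3-only genes, and in Mcl1, a survival gene, which was higher in KO at 134 against 111 RPKM. Pmaip1, a BH3-only gene below 1 RPKM, was at 0.729 RPKM in WT against 0.393 in KO, a log2 difference of -0.31 and a density ratio of 0.539 (interval 0.414 to 0.696). Bak1, the other main pore-forming gene, was at 23.0 RPKM in WT against 21.1 in KO. Of 19 names for the apoptosome, caspases and their inhibitors, 14 were in the table, 8 lower and 6 higher, none by 1.5-fold (median -0.079). Cycs, the cytochrome c gene, was at 1.48 and 2.13 RPKM, a low value for a gene with many processed copies. The caspase inhibitor Xiap was at 14.1 and 16.9 RPKM, a difference of 0.25 that became -0.061 after correction for GC content and length.

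Aen and Ei24 differed least. Aen encodes a nuclease that degrades DNA in dying cells. It (ENSMUSG00000030609, chromosome 7, 78895854 to 78911209, plus strand) was at 11.2 RPKM in WT against 10.2 in KO, 1.10-fold lower (interval 1.06 to 1.14). Ei24 encodes a membrane protein of the endoplasmic reticulum with roles in autophagy and growth suppression. It (ENSMUSG00000062762, chromosome 9, 36779159 to 36797393, minus strand) was at 56.1 RPKM in WT against 50.8 in KO, 1.11-fold lower (interval 1.09 to 1.13). With both libraries centred on the median difference of all listed genes, their log2 differences were -0.012 for Aen and -0.027 for Ei24. The Ei24 exons share 324 bases, 6.66% of their length, with the antisense gene Gm26787, and the strand used in counting is not given in the sources used here. Aen and Ei24 both have a half-site with no mismatch in their promoter windows, as have Bax and 9.55% of all genes with a window. These 3 members also had the density ratios closest to 1. That was seen after both were known, and a link between half-site and ratio was not tested.

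Of 9 names for relatives of the Aen nuclease, 5 were in the table, 3 lower and 2 higher in KO, none by 1.5-fold (median -0.11). Among genes of at least 1 RPKM, the 3 with the largest differences were Eri1 (14.2 and 17.0 RPKM), Isg20l2 (52.0 and 57.2) and Rexo4 (18.4 and 17.0), of which Eri1 changed sign after correction for GC content and length and Rexo4 after centring. The other pair, below 1 RPKM, were lower in KO: Trex1, at 0.423 and 0.157 RPKM, had a log2 difference of -0.30 and Isg20, at 0.192 and 0.0448, one of -0.19. Of 13 autophagy names, 8 were in the table, 3 lower and 5 higher, none by 1.5-fold. Their median of 0.053 became -0.12 after the same correction. Atg9a, a lipid scramblase of forming autophagosomes, was at 15.8 and 12.8 RPKM, and Atg16l1 (3.96 and 4.41) and Atg2a (5.56 and 5.12) came next.

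The receptor genes had the lowest density ratios of KO to WT and the lowest levels of the 7. Eda2r encodes a receptor for the A2 form of ectodysplasin. It (ENSMUSG00000034457, chromosome X, 97333840 to 97377216, minus strand) was at 1.35 RPKM in WT against 0.242 in KO, about 726 and 122 reads. It was 5.59-fold lower (interval 4.61 to 6.82), and its log2 difference with the pseudocount was -0.92. Fas encodes the death receptor that binds Fas ligand. It (ENSMUSG00000024778, chromosome 19, 34290659 to 34327770, plus strand) was at 0.231 RPKM in WT against 0.0519 in KO. The ratio of its densities corresponds to whole reads in the ratio 4.75, and the pair nearest to the estimate from gene length is 38 reads in WT against 8 in KO. With those reads the 4.46-fold lower density has an interval from 2.05 to 11.1. The pseudocount shrinks the log2 difference of Fas to -0.23, under the size rule, while the density ratio itself is past 1.5-fold.

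Lower density in KO was common among listed genes at such levels. Among 2238 listed genes under 1 RPKM on average and above 0 in WT, 76.6% had a density ratio at least 1.5-fold lower in KO and 28.8% at least 4-fold lower, the group that holds both Eda2r and Fas. Over all 10542 listed genes above 0 in WT, 6.78% were at least 4-fold lower. Only genes past the authors' corrected p-value of 0.05 are listed, and with few reads a gene passes only if its fold is large. These shares therefore describe listed genes and not all genes at this level.

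**Figure D2:**
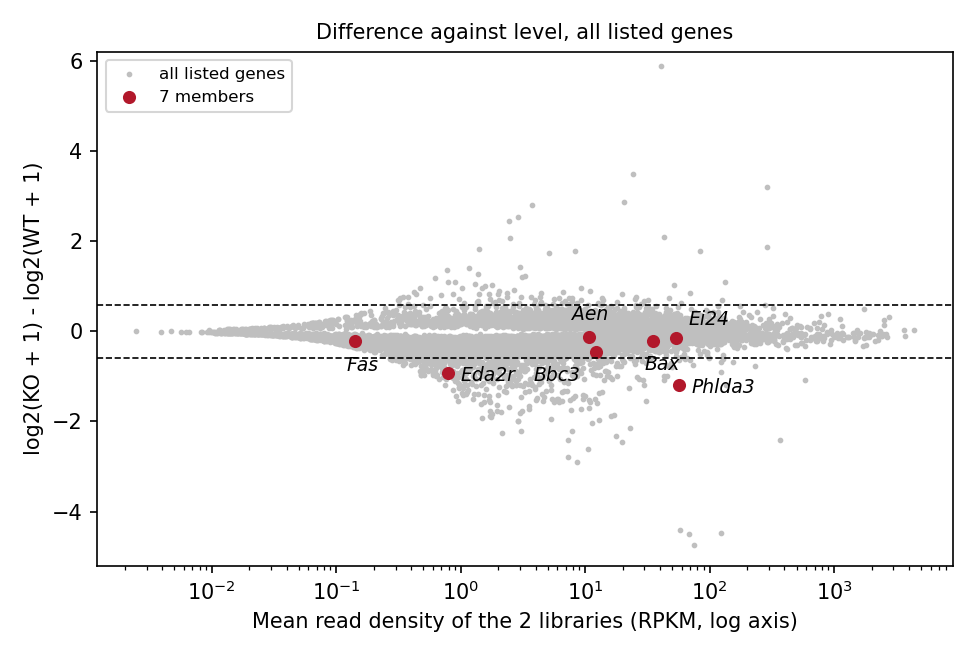
Difference between KO and WT, as log2(KO + 1) minus log2(WT + 1), against mean read density (RPKM, log axis), with 1 grey point per listed gene, the 7 members in red and dashed lines at 1.5-fold. Phlda3, at -1.18, and Eda2r, at -0.92, lie below the lower line, and the other 5 members lie between it and 0.

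Markers of other cell types were lower in the same library. Over the lists, 11 of 11 leukocyte genes were lower (summed density 17.4 RPKM in WT against 2.90 in KO), as were 13 of 13 endothelial (25.8 and 11.8), 15 of 17 stromal (603 and 454), 11 of 11 erythroid (633 and 23.9), 12 of 13 ureteric bud (155 and 133) and 13 of 13 podocyte and tubule genes (85.1 and 24.3). These counts are of genes in the table. Not in it, and of unknown direction, were 3 of 14 leukocyte, 4 of 15 erythroid and 2 of 15 podocyte and tubule names. Over all listed genes 63.9% were lower in KO and 5.49% at least 1.5-fold lower. Of the stromal genes 14 were at least 1.5-fold lower, with a list median of -1.21. No leukocyte gene and 1 endothelial gene reached the median density of 7.30 RPKM. The summed stromal density includes Aldh1a2, a retinoic acid synthesis gene, which was higher in KO at 286 RPKM against 272, as was Meis2 at 29.5 against 23.4. Tcf21, the second most abundant stromal marker, was at 79.5 RPKM in WT against 51.9 in KO. Of the erythroid list, the beta globin genes Hbb-b1 (237 RPKM in WT and 9.69 in KO) and Hbb-b2 (145 and 4.45) are near-identical copies whose split of reads is uncertain, and Hba-x and Gata1 were listed at 0 in KO. The most abundant leukocyte markers were the complement genes C1qb (4.25 and 0.644 RPKM) and C1qa (2.71 and 0.382). Those of endothelium were Plvap (10.7 and 4.98 RPKM) and Cd34 (6.14 and 4.26). Those of podocytes and tubules were Fxyd2 (18.9 and 2.25 RPKM) and Cldn5 (14.6 and 7.61). The ureteric bud list was led by Etv4 (51.4 and 44.9 RPKM) and Etv5 (40.5 and 41.8), the latter higher in KO. Of the 18 listed progenitor markers, 10 were lower and 8 higher in KO, none by 1.5-fold. The part of these other cells in the values of the 7 genes was not tested, and fewer cells of a type cannot be told apart from less RNA per cell. The libraries also differed in sex-linked RNA. Xist, expressed from the inactive X chromosome, was at 15.7 RPKM in WT against 70.1 in KO, and the Y-linked Ddx3y at 8.64 and 5.85. Eda2r is X-linked, and the part of this difference in its value was not tested.

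No listed gene around the receptors differed by 1.5-fold on the pseudocount scale. By the plain density ratio Tnfsf10, a ligand gene, and Traf1 were at least 1.5-fold lower, where 22.8% of all listed genes were. Tnfsf10 was at 0.0916 RPKM in WT against 0.0399 in KO, a ratio of 0.436 (interval 0.237 to 0.770). Of 17 names for death receptors, ligands and adaptors, 10 were in the table, 9 lower and 1 higher in KO, with a median of -0.12. Over all listed genes 63.9% were lower in KO, with a median of -0.11. Centred on that all-gene median, the median of the 10 was -0.0022. Ngfr, a receptor with a death domain, was at 25.3 RPKM in WT against 19.4 in KO, and Tnfrsf1a, the main receptor of tumour necrosis factor, at 26.6 and 21.5. Tnfrsf21, another death domain receptor, was higher in KO at 31.7 against 26.3 RPKM. Fadd, the adaptor that Fas recruits, was at 11.3 and 10.4 RPKM. Of 11 names of the ectodysplasin receptor pathway, 7 were in the table, 5 higher and 2 lower. Their median of 0.16 became 0.038 after correction for GC content and length. Tnfrsf19, a related receptor, was higher in KO at 19.4 against 14.2 RPKM. Its log2 difference of 0.43 became 0.41 after that correction. The adaptor Traf1 was at 2.48 RPKM in KO, a log2 difference of -0.53, and the kinase Map3k7 was at 24.5 and 28.6 RPKM, a difference of 0.21 that became 0.038. Eda, the ligand gene, was at 3.31 RPKM in WT against 2.96 in KO.

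The difference between these libraries varied with base composition. Across 10508 listed genes with a gene model, the log2 difference and GC content had a Spearman's rho of -0.42, given as a description over genes that share both libraries. Split into 5 groups of equal size, the genes lowest in GC had a median difference of 0.15 and those highest in GC one of -0.19. Bax (63.5% GC), Bbc3 (65.2%) and Phlda3 (62.6%) are short GC-rich genes that fell in the same bin of GC content and length. The median of the 390 genes in that bin was -0.22. Bax, at -0.21, lay at its middle, with 206 of the 390 genes at or below it. For Bbc3 this count was 67 and for Phlda3 9. Ei24, at -0.14, had 89 of 273 genes of its bin at or below it, Aen, at -0.13, 106 of 254, and Fas 53 of 202. Eda2r (40.9% GC) came from a bin with a median of 0.17, and 6 of its 298 genes were at or below it. With the median of its own bin taken off, Bax was at 0.011, Aen at -0.023, Ei24 at -0.048, Fas at -0.14, Bbc3 at -0.24, Phlda3 at -0.96 and Eda2r at -1.09. The correction for GC content and length used here and below adds the all-gene median of -0.11 to such values. It gave -1.21 for Eda2r, -1.07 for Phlda3, -0.36 for Bbc3, -0.25 for Fas, -0.16 for Ei24, -0.14 for Aen and -0.10 for Bax, so the sign of Bax after correction comes from the added median.

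**Figure D3:**
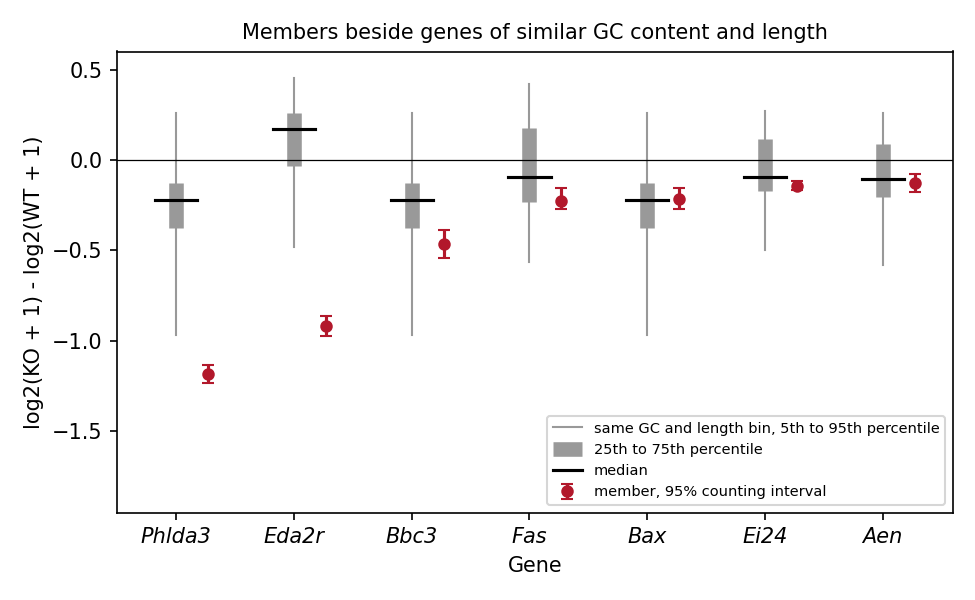
Log2 difference of each member (red, with 95% counting interval) beside the genes of its own GC and length bin, drawn as thin lines from the 5th to the 95th percentile, thick bars from the 25th to the 75th, and a black line at the median. Phlda3, at -1.18, and Eda2r, at -0.92, lie under the 5th percentile of their bins, and Bax, at -0.21, lies at the median of its bin.

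Other p53 targets were also mostly lower, by uneven amounts. Of 19 other names of p53 targets in cell death, 13 were in the table, 12 lower and 1 higher in KO and none at least 1.5-fold lower, with a median of -0.20. Zmat3, an RNA-binding protein gene, was at 6.79 RPKM in WT against 4.47 in KO. Siva1, a proapoptotic gene, was at 70.4 and 55.6 RPKM, and Ddit4, an inhibitor of mTOR signalling, at 26.8 and 21.3. By the plain density ratio 4 of these 13 were at least 1.5-fold lower, where 22.8% of all listed genes were. They were Zmat3, Perp, a membrane protein gene of apoptosis (1.14 and 0.504 RPKM), Pmaip1, the BH3-only gene Noxa (0.729 and 0.393 RPKM), and Casp1, an inflammatory caspase gene (0.0732 RPKM in WT and listed at 0 in KO), the last 3 named after their values were seen. Of 22 names of p53 targets in arrest, repair and feedback, 15 were in the table, 11 lower and 4 higher, and 6 were at least 1.5-fold lower (median -0.39), where 63.9% of all listed genes were lower and 5.49% at least 1.5-fold lower. The largest differences there were in Cdkn1a, the gene of the cell cycle inhibitor p21 (log2 difference -0.77), Ccng1 (-0.73) and Rprm (-0.73). With both libraries centred on the median, 3 of these 15 were at least 1.5-fold lower, against 3.85% of all listed genes. Of 18 names for p53 and its regulators, 8 were in the table, 3 lower, Trp53 among them, and 5 higher. Their median of 0.17 became -0.10 after correction for GC content and length. Chek1, a checkpoint kinase, was at 4.70 and 6.48 RPKM, a difference of 0.39 that became 0.11 after that correction. Ppp1r13b, a p53 cofactor gene, was at 3.94 and 2.56 RPKM. The directions of names outside the table are not known, since it holds only genes past the authors' corrected p-value of 0.05.

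**Figure D4:**
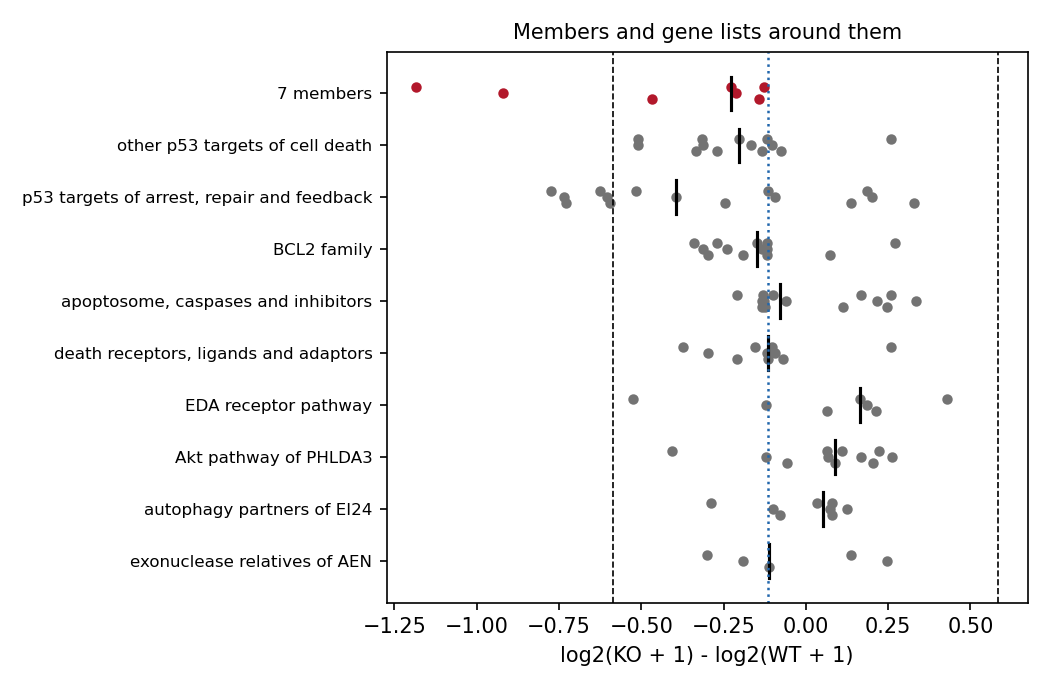
Log2 difference of each listed gene, 1 point per gene, for the 7 members (red) and the lists around them (grey), with black lines at list medians, a dotted line at the median of all listed genes (-0.11) and dashed lines at 1.5-fold. The arrest and repair targets and the members reach past the lower dashed line, and the BCL2, caspase, receptor, Akt and autophagy lists stay between the lines.

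Of the 7 members, 6 were lower in KO under each scaling and pseudocount tried. The exception was Bax, at 0.011 when the median of its GC and length bin was taken off with nothing added. The count past 1.5-fold also varied. It was 2, Eda2r and Phlda3, with centring (against 3.85% of all listed genes), with the authors' scaling (4.96%) and with the GC and length correction (5.93%) and with the bin median alone taken off (4.04%). It was 1, Phlda3, with a pseudocount of 4 (1.7%), and 3, with Fas added, when the pseudocount was 0.25 (13%) or left out (22.8% of listed genes above 0 in WT).

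**Figure D5:**
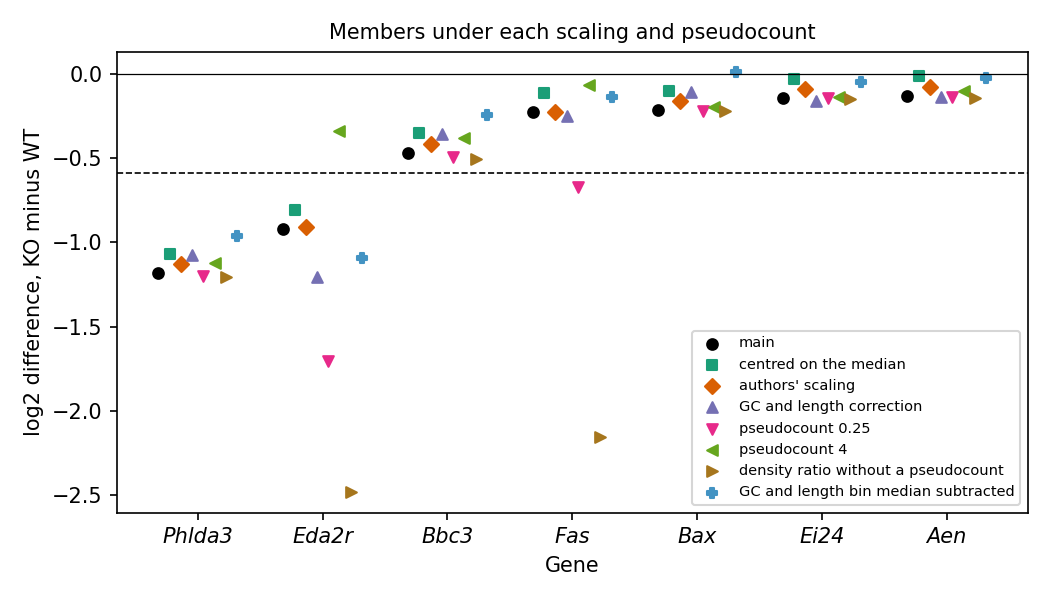
Log2 difference of the 7 members under the main setting and 7 others, 1 marker per setting, with a dashed line at 1.5-fold lower. All values lie below 0 except that of Bax (0.011) with the bin median alone taken off; those of Eda2r and Fas spread most with the pseudocount, from -0.34 to -2.48 and from -0.063 to -2.16.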

How the data were processed

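RNA from sorted nephron progenitor cells was sequenced in 1 WT and 1 KO library. Per the submitters' processing notes, CASAVA 1.8, Novoalign 2.08.02 and FastQC and the builds GRCm38 and mm10 were used, with no role given. The sources used here do not give the counting rules. What the authors deposited, per the file headers, is a read density per library, p-values before and after correction, a fold ratio, and a score, the fold with a minus sign for genes lower in KO. The largest corrected p-value is 0.0499827, so the authors deposited only genes past 0.05.

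The deposited density was read as RPKM from the values. Of 171 genes at 0 in KO and 75 at 0 in WT, 150 and 70 had folds in whole steps, within 0.01 of a read. Density times exon length (GENCODE vM21, GRCm38) gave 1 constant, within 0.5%, for 101 of 149 and 48 of 67 with a model. Read estimates and intervals are therefore approximate. The authors' fold carries a scaling of 1.04 between libraries.

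For 8 repeated symbols the row with the highest mean density was kept. Differences used a pseudocount of 1, which understates low genes, and a size rule of 1.5-fold in place of a test. No floor on density was applied. The correction for GC content and length took the median of a gene's bin (10 by 4 bins) off its log2 difference and then added the all-gene median of -0.11; leaving out that last step was an alternative added after seeing the data. Members, lists and rules were chosen with earlier results of these data known. Named genes were all members, the 3 largest absolute differences per pathway list at 1 RPKM or more and the 2 most abundant markers per cell type list. Others, such as Bak1, Akt1, Phlda1, Phlda2, Fadd, Tnfsf10, Eda, Cited1, Meis2, Hba-x, Gata1, Trex1, Isg20, Xist and Ddx3y, were chosen after their values were seen. Hoxb7, Ret, Wnt9b, Calb1 and Gata3 were also chosen after their values were seen. A gene that the naming rule picks is left out here. Scripts (Python 3.11.15, blastn 2.17.0) were tested on simulated data.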

Additional observations from a re-analysis of the deposited data

How the results depend on the processing

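No paired analysis was possible because each group has 1 library, and no library could be left out. The ratio without a pseudocount, over genes above 0 in both libraries, and the bin median taken off alone were added after seeing the data. Trp53 and the members other than Bax kept a negative difference under the alternatives. Values were set against the counting interval on the scale with a pseudocount of 1. For low genes a change of pseudocount alone can therefore take a value beyond it. Of 56 values with Bax, 21 stayed within that interval and 35 moved beyond it. With the bin median alone taken off they were 0.011 for Bax, -0.24 for Bbc3, -0.023 for Aen, -0.048 for Ei24, -1.09 for Eda2r, -0.14 for Fas, -0.96 for Phlda3 and -2.27 for Trp53. With a pseudocount of 4 they were -1.12 for Phlda3, -0.38 for Bbc3, -0.34 for Eda2r, -0.063 for Fas and -2.02 for Trp53. With 0.25 they were -1.70 for Eda2r, -0.67 for Fas and -2.60 for Trp53, and with none -2.48, -2.16 and -2.66. Centred on the median they were -0.099 for Bax, -0.35 for Bbc3, -0.012 for Aen, -0.027 for Ei24, -0.81 for Eda2r, -0.11 for Fas, -1.07 for Phlda3 and -2.34 for Trp53. The authors' scaling gave -0.074 for Aen, -0.086 for Ei24 and -1.13 for Phlda3. The GC and length correction gave -0.10 for Bax, -0.36 for Bbc3, -1.21 for Eda2r, -1.07 for Phlda3 and -2.39 for Trp53.

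In brackets are shares of all listed genes under the same setting. Members at least 1.5-fold lower went from 2 to 1 with a pseudocount of 4 (1.7%) and among members at or over the median density of 7.30 RPKM (fewer genes, 2.41%). Their count was also 1 with a 2-fold rule, which is stricter. It was 3 with a pseudocount of 0.25 (13%) or none (22.8% of listed genes above 0 in WT). The 6 arrest and repair targets at least 1.5-fold lower (5.49%) went to 3 with a pseudocount of 4 (1.7%), centring (3.85%), the authors' scaling (4.96%) or the density floor (2.41%). They went to 2 with the bin median alone taken off (4.04%), to 1 over the 75th percentile of density and to 0 at 2-fold. The shares of all listed genes over the 75th percentile and at 2-fold were not computed. The 0 other death targets went to 2 with a pseudocount of 0.25 and 3 with none (genes above 0 in both libraries). Their count was 1 with the GC and length correction (5.93%) or the bin median alone taken off. The p53 regulators went from 1 to 2 with no pseudocount and to 0 over the 75th percentile. From 0, the BCL2, ectodysplasin and Akt lists went to 1 with a pseudocount of 0.25 or none, the death receptor list to 1 with none, and the nuclease relatives to 1 with 0.25 and 2 with none. Of 149 list medians, 15 changed sign, as did 9 of 301 differences of other named genes. What caused these changes was not tested. Fas, at 8 reads in KO, is limited most by depth.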
